A study of Mus musculus with 2 samples.

Results

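DNase I hypersensitive sites (DHS) that lie a short way upstream of genes, outside the promoter itself, were examined in splenic B cells of mock-treated mice. They were chosen by position alone: on chromosomes 1 to 19, a DHS was called an upstream DHS when its centre lay 1 to 5 kb upstream of a transcription start site (TSS) of a protein-coding gene and the DHS overlapped no window of 1 kb on either side of any annotated TSS. Of 46610 DHS on these chromosomes, 3230 met the rule (6.93%, 95% Wilson interval 6.70 to 7.16). The cells were B220+ splenocytes taken by magnetic beads from C57/Bl6 Trp53+/+ mice of 8 weeks and carry mock as their treatment label. The series holds 1 DNaseI library and 1 input library from such cells, with no replicates. No input file was used here. B220 selection does not remove every other cell type, and all values below are averages over whatever the selected cells held.

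DNase I cuts DNA that is free of nucleosomes more readily than packed DNA, so a DHS marks a stretch where a protein such as a transcription factor has displaced the nucleosomes. DNA just upstream of a promoter often carries proximal enhancers, sites for factors of the cell lineage, and sites of CTCF, a zinc finger protein that blocks or anchors chromatin loops. In B cells the lineage factors include E2A, Ebf1, Pax5, PU.1, Ikaros, Runx and Oct2.

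The upstream DHS of B cell genes give an impression of such sequence. The 200 bases at the centre of the highest-scoring upstream DHS are shown for 5 genes of the B cell lists with high values, read along the strand of the gene on mm9. The genes are Cd180, a Toll-like receptor homologue (chr13:103480030-103480229, plus strand), Vav1, an exchange factor downstream of the receptor (chr17:57415512-57415711, plus strand), Pik3cd, the lymphocyte PI3 kinase subunit p110 delta (chr4:149039444-149039643, minus strand), Cd72, an inhibitory co-receptor (chr4:43470107-43470306, minus strand), and Ikzf3, the Ikaros family member Aiolos (chr11:98354716-98354915, minus strand). Capitals mark matches to the factor words searched further below. They are the EBF1 and SP1 words in Vav1, the E2A E-box in Pik3cd, Cd72 and Ikzf3, and the IRF word in Ikzf3. The Cd180 stretch held none of these words, which says only that these letters are not in this window.
Cd180: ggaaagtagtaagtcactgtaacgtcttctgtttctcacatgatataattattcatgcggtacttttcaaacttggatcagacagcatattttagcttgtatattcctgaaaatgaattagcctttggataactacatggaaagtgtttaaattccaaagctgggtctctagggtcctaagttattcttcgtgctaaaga
Vav1: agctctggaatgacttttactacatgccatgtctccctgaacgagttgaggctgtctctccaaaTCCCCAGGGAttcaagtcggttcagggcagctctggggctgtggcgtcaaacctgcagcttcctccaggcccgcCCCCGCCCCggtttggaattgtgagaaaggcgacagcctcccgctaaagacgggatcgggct
Pik3cd: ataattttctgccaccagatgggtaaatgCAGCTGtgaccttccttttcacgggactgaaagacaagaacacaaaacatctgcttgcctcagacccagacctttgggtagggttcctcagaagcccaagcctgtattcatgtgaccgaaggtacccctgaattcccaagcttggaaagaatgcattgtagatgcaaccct
Cd72: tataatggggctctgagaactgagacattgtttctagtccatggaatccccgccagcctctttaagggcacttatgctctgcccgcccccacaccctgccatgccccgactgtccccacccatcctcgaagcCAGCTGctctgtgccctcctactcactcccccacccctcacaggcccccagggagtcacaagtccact
Ikzf3: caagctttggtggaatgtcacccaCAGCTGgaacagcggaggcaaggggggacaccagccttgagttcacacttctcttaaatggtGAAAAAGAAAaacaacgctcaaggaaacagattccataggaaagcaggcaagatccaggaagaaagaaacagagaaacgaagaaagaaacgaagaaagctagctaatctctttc

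The library as a whole had DHS at the markers of B cells, and at some markers of other cells. The deposited list held 47542 DHS, each with a position and the authors' score, a value of the peak caller whose scale is not stated. The depth is unknown, so a missing DHS means only that none was called. All 8 B cell markers checked, among them Cd79a, Cd79b, Cd22, Ms4a1, Pax5, Ebf1 and Cr2, had a DHS within 1 kb of a TSS, with scores of up to 265. Of 8 T cell markers 1 did (Lck, 68.9), while Cd3e, Cd3d, Cd3g, Cd4, Cd8a, Zap70 and Thy1 had none. Of 6 myeloid markers 2 did (Itgam and Cd14, 18.2 and 51.1), and of 3 erythroid markers in the annotation 2 did. Their part in the values below was not tested.

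Upstream DHS were about as dense as DHS on the other side of the TSS, denser than distal DHS and sparser than DHS at TSSs. The upstream zone, without the windows at TSSs, measured 121 Mb of sequenced bases and held 26.7 DHS per Mb (exact Poisson interval 25.8 to 27.6). The mirror zone, 1 to 5 kb downstream of protein-coding TSSs and not in the upstream zone, held 26.0 per Mb (25.1 to 27.1). The ratio of both was 1.03 (0.973 to 1.08) and did not exclude equality. The windows at TSSs held 167 DHS per Mb, and the distal remainder 11.65 per Mb, so that the upstream zone had 2.29 times (2.21 to 2.38) the distal density. These intervals cover counting error only, as do all intervals below, since there is 1 library. Among DHS at or above the median score of the list, 1205 upstream DHS remained, and the ratio of upstream to downstream density was 1.18 (1.08 to 1.29). Its interval also lay above 1 with DHS closer than 500 bp merged (1.07, 1.007 to 1.14), in the zone of 3 to 5 kb (1.07, 1.004 to 1.15) and with coding transcripts only (1.06, 1.004 to 1.125), an alternative added after seeing the data. It included 1 with 1 TSS per gene (1.05, 0.988 to 1.12) and with the centre in place of overlap (0.954 to 1.05), and the ratio of covered bases was 0.977.

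Density differed little over the outer part of the zone. In steps of 1 kb, it was 20.6 DHS per Mb (19.04 to 22.2) at 1 to 2 kb, 28.8 (27.0 to 30.8) at 2 to 3 kb, 28.6 (26.7 to 30.6) at 3 to 4 kb and 29.4 (27.4 to 31.5) at 4 to 5 kb. The rule leaves less room for a wide DHS in the first step, where the median width was 457 bp against 587 to 657 bp in the others. When only the centre had to lie outside the windows, 3806 DHS in place of 3230 were members. With every DHS placed by its nearest protein-coding TSS, density was 35.7 per Mb at 1 to 1.5 kb upstream, 30.3 at 2 to 2.5 kb and 29.3 at 4.5 to 5 kb. It was 91.0 per Mb from 1 kb to 0.5 kb upstream and 247 in the last 0.5 kb before the TSS.

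**Figure D1:**
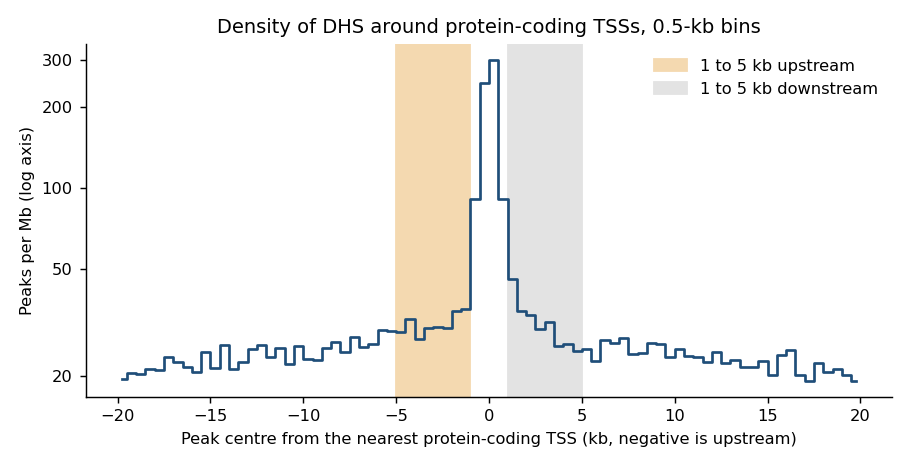
DHS per Mb of sequenced bases (log axis) against the distance of the DHS centre from the nearest protein-coding TSS in bins of 0.5 kb, all DHS of chromosomes 1 to 19. The shaded zones run from 1 to 5 kb on either side, where the density lies between 24.8 and 46.1 per Mb, far below the 300.3 per Mb of the first bin downstream of the TSS.

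The rule sets hard limits, and the DHS on either side of them were these. The closest to 1 kb was a DHS of 338 bp with a score of 11.1, centred 1182 bp upstream of Uap1. A DHS of 475 bp with a score of 36.6 was centred 1000 bp upstream of I830012O16Rik and reached a TSS window, so it was no member. At the far limit a DHS with a score of 23.7 was centred 4997 bp upstream of Kcng1 and was a member, and one with a score of 62.2 was centred 5003 bp upstream of Txn2 and was not.

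Upstream DHS were weak and narrow compared with DHS at TSSs and nearer to distal DHS. Their median score was 25.4 (24.6 to 26.3), with quartiles at 15.8 and 43.4 and a range from 5.42 to 446. The median was 24.6 in distal DHS (24.3 to 24.9), 23.1 in downstream DHS (22.3 to 23.9) and 71.8 in DHS at TSSs (70.5 to 73.3). The median width was 559 bp in upstream DHS (539 to 585), 558 bp in downstream DHS, 614 bp in distal DHS (604 to 626) and 1078 bp at TSSs. The upstream median exceeded the distal one by 0.79 in score, a difference that the bounds of both medians do not set apart from 0 (lower bound -0.34). The difference was 2.02 (1 to 3.32) with the centre in place of overlap, 2.09 (0.62 to 3.41) with 1 TSS per gene and 2.71 (0.96 to 3.96) in the zone of 3 to 5 kb. Wider DHS had higher scores, so scores were also compared between DHS of like width. Among DHS of 500 to 999 bp the median score was 27.4 (26.1 to 28.9) upstream, 26.0 (25.5 to 26.5) in distal DHS and 51.9 (50.2 to 53.5) at TSSs. Among DHS of 1000 to 1999 bp it was 52.3 upstream, 50.5 in distal DHS and 97.2 at TSSs. Below 500 bp the classes lay close together, at 17.7, 16.9 and 18.3.

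Many upstream DHS lay within the body of the gene they were assigned to. By the annotation, 1686 (52.2%) had an intergenic centre, 440 (13.6%) lay inside another gene, and 1104 (34.2%) lay inside their own gene, where they were upstream of an inner TSS and downstream of an outer one. The centre fell in an exon in 188 (5.82%) and in an intron in 1356 (42.0%). A DHS within 1 kb of the very TSS the upstream DHS was assigned to was present for 2133 of 3230 (66.0%). The share was 79.9% (77.9 to 81.7) for intergenic members and 38.0% (35.2 to 40.9) for those inside their own gene. Upstream DHS inside their own gene had a median score of 23.6 (22.2 to 24.8), against 26.6 (25.5 to 27.9) for intergenic members. Counting only the outermost TSS of each gene left 2163 upstream DHS.

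Genes with an accessible promoter more often had an upstream DHS. Of 21390 protein-coding genes with an upstream zone, 2517 had at least 1 upstream DHS (11.8%), 1872 of them exactly 1, 497 had 2 and 148 had 3 or more. A DHS within 1 kb of any of its TSSs was present in 11641 genes (54.4%), and 2127 of these had an upstream DHS (18.3%, 17.6 to 18.98). Of the 9749 genes without one, 390 did (4%, 3.63 to 4.41), a ratio of 4.57 (4.11 to 5.07). For a DHS 1 to 5 kb downstream of a TSS of the gene the shares were 18.1% and 4.21%. Upstream DHS that also lie downstream of a TSS were counted here, so both sides share some DHS. Shares for the mirror zone alone were not counted. The share varied less with the strength of the promoter DHS. Across quartiles of the TSS score the share with an upstream DHS was 16.7%, 18.6%, 17.5% and 20.3%. The share was 17.7% (16.8 to 18.6) for CpG-rich promoters with a DHS and 19.2% (18.1 to 20.4) for CpG-poor ones. Across the 2127 genes with both, Spearman's rho of the highest upstream score and the TSS score was 0.00579, a description over genes of 1 library. The upstream DHS was typically the weaker, at a median of 0.305 times the TSS score, but in 305 genes (14.3%) it scored higher.

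The genes with the highest-scoring upstream DHS were of mixed function. The highest score of all, 446 (chr4:132070221-132071483), belonged to a DHS of 1263 bp centred 4436 bp upstream of Sesn2, a stress-induced inhibitor of mTORC1 and a p53 target, whose own TSS DHS scored 245.5. The 9 that followed scored from 281 to 431. They lay upstream of Myo3b (430.7), Aurkb (377.5), Trim7 (367.9), Zfp184 (356.4), 9330160F10Rik (331.6), Clptm1 (330.5), Zfp238 (315.1), Haao (295.2) and Gm5292 (281). Those of Myo3b and Trim7 lay in introns of their own gene, and those of Zfp184 and Zfp238 in introns of other genes. Myo3b, a myosin, and Gm5292 had no DHS at a TSS, whereas Aurkb, a mitotic kinase, had one of 180.5. Distances in these 10 ran from 2735 to 4971 bp. In Trim7 13.3% of 31-base words occur more than once in the assembly, so its value is less certain, and in the other 9 at most 8.53% do.

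Width and number picked out other genes. The widest upstream DHS measured 4607 bp, upstream of Cd52, a surface glycoprotein of lymphocytes, with a score of 251.5, and 11.65% of its 31-base words were repeated. Those of Id2, an inhibitor of E proteins, Sf3a3, a splicing factor subunit, Cbfa2t3, a corepressor, and Gm13334 followed with 3485, 3150, 3136 and 3132 bp. The most upstream DHS were counted for Sgms1, a sphingomyelin synthase, and Ablim1, with 7 each, then Ubxn11, Sfi1 and Jakmip1 with 5 each. These genes have several annotated TSSs, and each had a TSS DHS, with scores from 69.2 to 188. The 7 of Sgms1 ranged in score from 11.1 to 112.7 and all lay in introns of the gene. Repeated 31-base words made up 37.4% of 1 of them, 35.5% of 1 DHS of Ubxn11, which also shares the wide DHS of Cd52, and 27.7%, 14.2% and 11.2% of 3 of Sfi1.

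Genes of the B cell receptor and its partners often had an upstream DHS. Of 25 listed genes, 12 (48%, 30.03 to 66.5) had one, beside 11.8% of all genes and 18.3% of genes with a TSS DHS, which all 25 had. It was 7 when DHS closer than 500 bp were merged, beside 10.12% of all genes, and 5 at or above the median score, beside 5.26%. Cd180 had 2, the higher at 164 against 150 at its TSS. Cd72 followed with 113 against 158, and Tnfrsf13b, the receptor TACI, with 79.0 against 139.5 at its strongest TSS, though the DHS at the TSS to which it was assigned scored 26.6 and 35.9. The signal chain genes Cd79a and Cd79b had weaker ones, at 25.01 and 28.35. The lowest of the 12 was at Cxcr5, the receptor for the follicular chemokine, with 10.4 beside a TSS DHS of 127.

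The signalling and transcription factor lists gave like shares. Of 17 matched receptor signalling genes 7 had an upstream DHS (41.2%, 21.6 to 64.0), and of 27 transcription factors of B cells 12 did (44.4%, 27.6 to 62.7), each with a DHS at a TSS, beside 11.8% of all genes and 18.3% of genes with a TSS DHS. Vav1 had the highest of the former with 139, against 239 at its TSS, then Pik3cd with 121 against 350, Ptpn6, the phosphatase SHP-1, with 58.3, and Blnk, the adaptor of Syk, with 47.8. Those of Pik3cd and Ptpn6 lay in introns of their own gene, that of Pik3cd upstream of an inner TSS that had no DHS of its own. Among the factors, Ikzf3 had 3, the highest at 104.5, also upstream of an inner TSS. Bcl11a followed with 88.1, Runx3 with 87.8, above its TSS score of 72.3, and Foxp1 with 59.5. These too lay in introns of their own gene. The gene of PU.1, Sfpi1, had 4, the highest at 53.9 and 4102 bp upstream. In the 3 lists together 31 of 69 genes had an upstream DHS (44.9%, 33.8 to 56.6), beside the same 11.8% and 18.3%. With 1 TSS per gene it was 22, beside 8.66% of all genes, and the factors among them fell to 5. With merging it was 24, beside 10.12%, and at or above the median score 17, of which 7 were factors, beside 5.26%.

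Antigen presentation genes often had an upstream DHS as well. Of 10 MHC class II genes and regulators, all with a TSS DHS, 6 had one (60%, 31.3 to 83.2, beside 11.8% of all genes), an interval that overlaps those of the B cell lists. H2-Eb1, a beta chain gene, had one of 182, 3991 bp upstream, beside a TSS score of 356. H2-Ab1 had one of 121, H2-Aa, an alpha chain gene, 2 with the higher at 64.8, and H2-Ob 1 of 54.97. H2-Ob had 20.4% repeated 31-base words. The gene of Ciita, the master regulator of these genes, had 2 weak ones with at most 17.9. The H2 genes named lie close to each other on chromosome 17, so a DHS upstream of one can belong to a neighbour. When DHS closer than 500 bp were merged, 3 of the 10 had one, beside 10.12% of all genes.

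**Figure D2:**
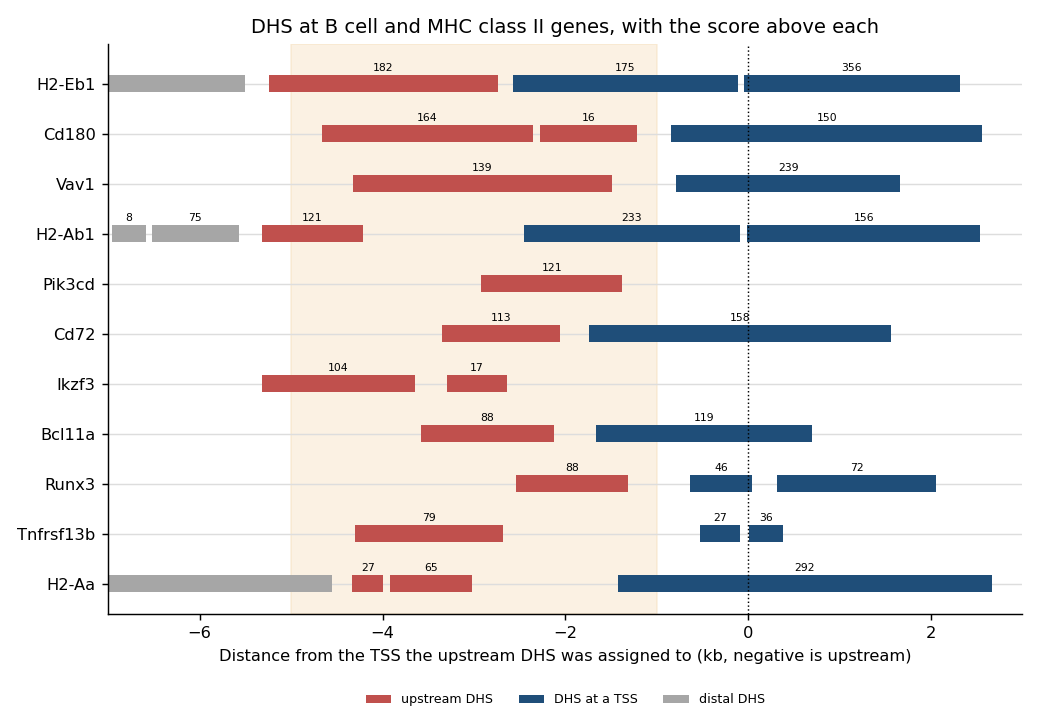
DHS from 7 kb upstream to 3 kb downstream of the TSS to which the highest upstream DHS was assigned, for B cell and MHC class II genes with high upstream scores (the score above each DHS whose centre is in view). H2-Eb1 shows the highest upstream DHS of these with 182, and Pik3cd and Ikzf3 have no DHS at the assigned inner TSS.

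Lists of other cell types gave uneven shares. Of 21 T cell genes 6 had an upstream DHS (28.6%, 13.8 to 49.96), beside 11.8% of all genes. At or above the median score 3 did, beside 5.26%. A DHS at a TSS was present in 8 of the 21, of which 5 had an upstream DHS (62.5%, 30.6 to 86.3), beside 18.3% of all such genes, and this interval overlaps those of the B cell lists. Lck, a kinase of T cells, had the highest with 92.8, above its TSS score of 68.9. Cd2 had 3, the highest at 42.1, Cd247 had 1 of 32.8 and no TSS DHS, and Il7r had 1 of 28.1. Of 19 myeloid and erythroid genes 3 had an upstream DHS (15.8%, 5.52 to 37.6), near the 11.8% of all genes. These were Elane with 2, the higher at 42.5, Prtn3 with 35.8 and Itgam with 15.3. With 1 TSS per gene 1 had one, beside 8.66% of all genes, and at 3 to 5 kb 1 had one, beside 7.84%. Elane and Prtn3 are neutrophil protease genes that lie next to each other on chromosome 10. Of 23 genes of other tissues 0 had one, which at the limit of 3 counts allows a share of up to 13.0% (the Wilson bound is 14.3%), and 3 had a TSS DHS. With the centre in place of overlap 1 of them had one, beside 13.55% of all genes. Of 18 housekeeping genes, all with a TSS DHS, 6 had an upstream DHS (33.3%, 16.3 to 56.3), beside 18.3% of all genes with a TSS DHS. At or above the median score 3 did, beside 5.26% of all genes. Eef2, a translation elongation factor gene, had 2, the higher at 87.8, Rplp0 had 1 of 41.6 and B2m 1 of 30.7. The interval of the housekeeping list overlapped those of the B cell lists.

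Genes of the p53 target list had an upstream DHS about as often as housekeeping genes, with overlapping intervals. Of 26 matched genes 24 had a TSS DHS and 9 had an upstream DHS (34.6%, 19.4 to 53.8), beside 11.8% of all genes and 18.3% of those with a TSS DHS. At or above the median score it was 4, beside 5.26%. Beside Sesn2 these were Gdf15, a stress cytokine, with 83.7 and no TSS DHS, Bax, a pore-forming death effector, with 39.6, Plk2 with 34.4, and Fas, Sesn1, Btg2, Trp53inp1 and Bbc3 with 28.6 or less. The p53 element searched is a pair of adjoining decamers, in which 2 of 20 positions may mismatch but the C and the G of both cores may not. It was found in 29 upstream DHS (0.898%, 0.626 to 1.29) when the whole DHS was searched. A match at all 20 positions was found in 0 upstream DHS, which at the limit of 3 counts allows up to 0.0929% (the Wilson bound is 0.119%), while 3 had 1 mismatch. Of the 29, 0 were upstream of a gene of the p53 list. Only 9 of the 2517 genes with an upstream DHS are on that list, so 29 DHS are too few to read this as a lack. The 5 with the highest score each had 2 mismatches and are shown to let the match be read, with the 4 core bases of each decamer in capitals, on the plus strand of mm9. They lay upstream of 2810008M24Rik (score 190, chr13:108833778-108833797), H2-Eb1 (182, chr17:34439991-34440010), Myst2 (81.4, chr11:95155107-95155126), Cyp8b1 (64.8, chr9:121828307-121828326) and Apoe (61.8, chr7:20286547-20286566).
2810008M24Rik: ataCATGtctcggCTTGctc
H2-Eb1: aggCAAGcctggcCCAGctc
Myst2: agaCTTGctcataCAAGcat
Cyp8b1: aaaCTAGctaggaCAGGctc
Apoe: gacCATGcctggcCAAGctt

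**Figure D3:**
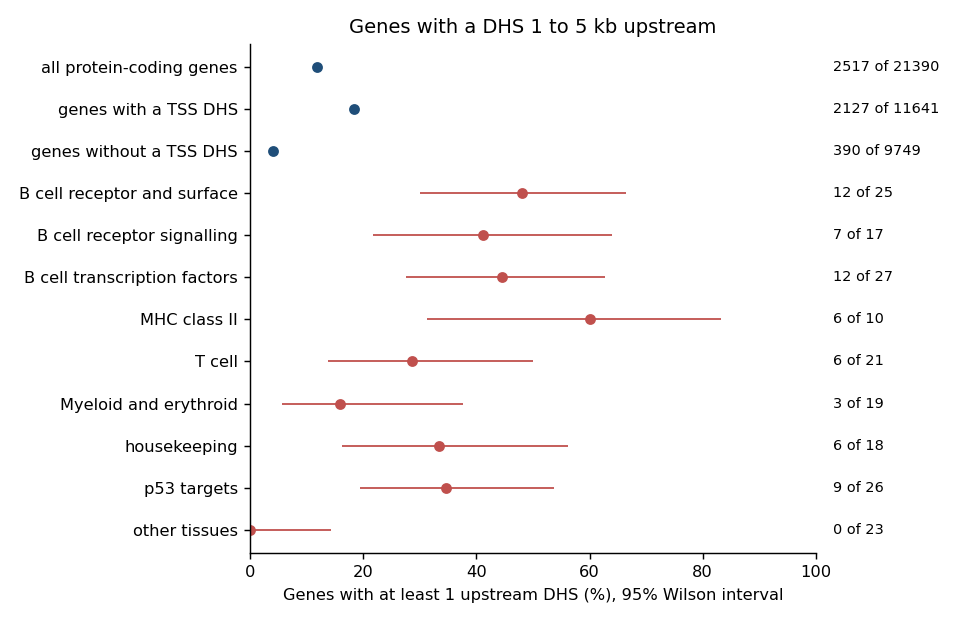
Share of protein-coding genes with at least 1 upstream DHS, with 95% Wilson intervals and counts at the right. The blue points are all genes (11.8%), genes with a DHS at a TSS (18.3%) and genes without one (4%), and the red points are the gene lists, of which other tissues is at 0 and MHC class II is the highest at 60%.

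The base composition of upstream DHS set them apart from promoters. The central 300 bp had a median GC content of 48% (47.7 to 48.3), against 44% in 376173 tiles of 300 bp of the same zone that held no DHS, 47.7% in distal DHS and 57.3% at TSSs. Centres with 55% GC or more whose CpG count was 0.6 or more of that expected from their base content were called CpG-rich. This held for 108 upstream DHS (3.34%, 2.78 to 4.02), 4.36% of downstream DHS, 1.88% of distal DHS, 43.7% of DHS at TSSs and 0.267% of the tiles. CpG-rich upstream DHS scored higher, with a median of 45.3 (32.5 to 59.7) against 25.03 (24.3 to 26.0), but were also wider, at 994.5 against 546 bp, and less often had a gene with a TSS DHS, at 67.6% (58.3 to 75.7) against 86.9% (85.7 to 88.1). The highest were those of Zfp238 (315.1), Zfp498 (256.3), Tac4 (255.2), Gclc, which makes glutathione (216.5), and 2810008M24Rik (190). Zfp498 and 2810008M24Rik had no DHS at an annotated TSS. Tac4 had one of 12.4. The other upstream DHS among the 5 highest at genes without a TSS DHS were those of Myo3b, Gm5292 and D6Ertd527e (225).

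Words bound by transcription factors were counted in the central 300 bp on both strands, and the share of the peak-free tiles served as background. Of 18 words, 8 had a share whose interval lay above that of the tiles. CTCF led them by far. The ETS core (AGGAAGTG or CGGAAGTG) was in 4.99% of upstream DHS and 2.57% of tiles, a ratio of 1.94 (1.67 to 2.26). The EBF1 palindrome was in 1.24% against 0.626%, a ratio of 1.98 (1.45 to 2.70). The E2A E-box (CAGCTG) was in 17.6% against 12.5% (1.40), the composite of ETS and IRF in 4.27% against 2.99% (1.43), the NF-kB word in 7.49% against 4.12% (1.82), the SP1 box (GGGGCGGGG) in 1.83% against 0.638% (2.87) and the NRF1 word in 0.0929%, or 3 DHS, against 0.0170%. When the tiles were weighted to the GC content of the upstream DHS the E-box ratio was 1.08, the NF-kB ratio 1.27, the SP1 ratio 1.56, the EBF1 ratio 1.43 and the ETS ratio 1.68. In downstream and distal DHS the ETS core was in 4.71% and 5.79%, the EBF1 palindrome in 1.18% and 1.23%, and the E-box in 19.2% and 18.5%. There the NF-kB word was in 6.98% and 6.22%, the SP1 box in 1.40% and 1.31%, and the composite in 3.83% and 4.12%. These shares also lay above those of the tiles, so the excess was not particular to upstream DHS. For 7 words the interval in upstream DHS overlapped that of the tiles. The RUNX word (TGTGGTTA or TGTGGTTT) was in 3.75% of upstream DHS and 3.41% of tiles, the OCT word (ATTTGCAT) in 1.58% and 1.85%, and the IRF word in 4.40% and 4.38%. The AP-1 word, TGACTCA with C or G in the middle, was in 5.29% and 5.09%, and the CRE word (TGACGTCA) in 0.186% and 0.153%. The p53 element was in 0.310% and 0.336%, and the long PU.1 word in 0.0619%, or 2 upstream DHS, and 0.0191%, a ratio of 3.24 with an interval from 0.794 to 13.2. Some of these ratios lay clear of 1 under other settings. With DHS closer than 500 bp merged they were 2.80 (1.502 to 5.23) for CRE, 1.27 (1.05 to 1.535) for RUNX, 1.19 (1.01 to 1.39) for AP-1 and 11.2 (4.52 to 27.6) for the long PU.1 word, which at or above the median score was at 8.67 (2.13 to 35.3). In the central 100 bp RUNX was at 1.40 (1.06 to 1.84). Rarer than in the tiles were the GATA word (AGATAAG) with 3.19% against 4.125%, the MEF2 word with 0.248% against 0.554% and the NFY box (CCAAT) with 30.6% against 35.65%. With weighting the intervals of RUNX (1.25, 1.05 to 1.49) and IRF (1.33, 1.13 to 1.56) lay above 1, and those of GATA (0.885, 0.731 to 1.07) and MEF2 (0.710, 0.360 to 1.40) included it. The GATA interval also included 1 at or above the median score (to 1.023), with merging (to 1.04), with 1 TSS per gene (to 1.023) and at 3 to 5 kb (to 1.04). That of MEF2 excluded 1 under no alternative but the centre in place of overlap (to 0.943). That of NRF1, above the tiles on 3 matches, included 1 at 3 to 5 kb (2.73, 0.374 to 19.9). The composite holds the GGAA of the ETS core and the GAAA of the IRF word, so matches of these can overlap.

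**Figure D4:**
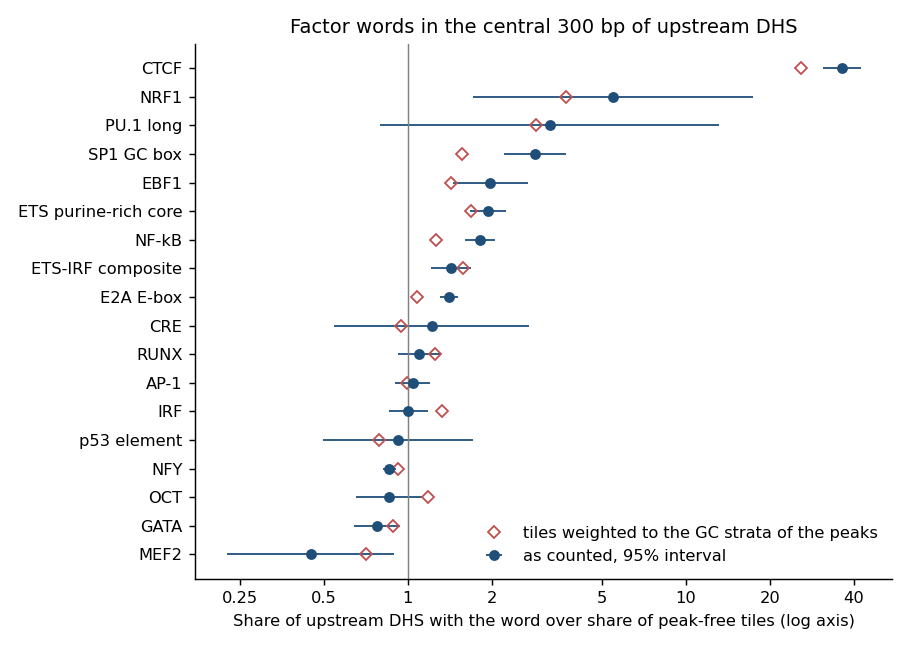
Ratio of the share of upstream DHS that hold a word in the central 300 bp to the share of peak-free tiles of the same zone (log axis), for 18 words. Points are the counts with 95% intervals and open diamonds the ratio with tiles weighted for GC content. CTCF stands apart at 36.3, and 25.9 with weighting.

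CTCF stood apart from all other words. Its word was in 198 upstream DHS (6.13%, 5.35 to 7.01) and in 0.169% of the tiles, a ratio of 36.3 (31.1 to 42.4), and 25.9 with GC weighting. The share was above that in downstream DHS (4.29%) and in DHS at TSSs (2.07%), and close to that in distal DHS (5.44%). It rose with the score, from 0.739% (0.339 to 1.60) in the lowest quartile of upstream DHS to 2.86%, 8.43% and 12.5% (10.4 to 15.0) in the highest. The ETS core rose less, from 4.19% to 7.05%. Upstream DHS with the CTCF word had a median score of 43.95 (39.2 to 47.9) and a width of 964 bp, against 24.3 (23.4 to 25.1) and 527 bp for the rest, so score and width moved together here too. The 3 with the highest scores are shown because this word sets upstream DHS furthest apart from the tiles. With the word in capitals and 20 bases on each side on the plus strand of mm9, they lay upstream of Sesn2 (446, chr4:132070829-132070881), Abcc12 (174, chr8:89109164-89109216) and Nfam1 (167, chr15:82868305-82868357). They were picked after the word had been seen to be frequent.
Sesn2: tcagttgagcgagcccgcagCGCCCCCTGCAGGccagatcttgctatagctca
Abcc12: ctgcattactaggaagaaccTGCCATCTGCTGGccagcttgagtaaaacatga
Nfam1: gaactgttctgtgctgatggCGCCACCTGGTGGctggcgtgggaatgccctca

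Narrow upstream DHS had the CTCF word just outside their edges. Over all upstream DHS, 264 (8.17%) held the word anywhere inside and another 217 (6.72%, 5.91 to 7.63) only within 100 bp outside an edge, together 14.9% (13.7 to 16.2). The position turned with width. Of 1405 DHS under 500 bp, 10 (0.712%, 0.387 to 1.31) held the word inside and 159 (11.3%, 9.77 to 13.1) had it outside an edge. Of 1095 DHS of 750 to under 1500 bp, 217 (19.8%, 17.6 to 22.3) held it inside and 8 (0.731%) had it outside. The same was seen elsewhere, with 10.9% outside an edge in downstream DHS under 500 bp and 11.7% in distal DHS under 500 bp, so it is not particular to the upstream zone. In DHS of 500 bp or more the word was most frequent within 50 bp of the centre, and in narrower ones it peaked 200 to 250 bp away on both sides.

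Some CTCF words lay in short gaps between neighbouring DHS. No 2 DHS of chromosomes 1 to 19 were closer than 52 bp, and 1107 upstream DHS (34.3%, 32.7 to 35.9) had a neighbour closer than 300 bp. Those were narrow, with a median of 443 bp against 767 bp for the others. Close neighbours were no trait of upstream DHS, since 36.7% of downstream DHS, 37.5% of those at TSSs and 30.7% of distal DHS had one, and were narrower too (470 against 689 bp, 760 against 1310 bp and 480 against 762 bp). There were 767 such gaps, 387 of them between 2 upstream DHS and 281 beside a DHS at a TSS. The 300 bp around the centre of a gap held the CTCF word in 18.2% (14.5 to 22.7) of 340 gaps under 100 bp, in 6.94% of those of 100 to under 200 bp and in 0.149% of those of 1000 to under 2000 bp. In 51 of the 340 gaps the whole word lay between both DHS (15.0%, 11.6 to 19.2). The ETS core was less sharply placed, at 8.24% (5.76 to 11.6) under 100 bp and 2.68% at 1000 to 1999 bp. Of the 159 narrow DHS with the word outside, 95 (59.7%, 52.0 to 67.0) had a neighbour closer than 300 bp, beside 34.3% of upstream DHS of all widths. The share among all narrow DHS, and the side on which the neighbour lay, were not counted. The cause of the placement of the word was not tested. When DHS closer than 500 bp were merged, 2338 upstream DHS were left and the CTCF ratio was 59.0 (51.1 to 68.2). This pattern was noticed in the data and not planned.

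Gaps under 100 bp between 2 upstream DHS with the whole word between them, the 4 with the highest summed score of both DHS, are printed to show the word in place. Each is the stretch that separates the pair, on the plus strand with the word in capitals. At 1700022I11Rik (chr4:42978348-42978411) DHS of 427 and 633 bp with scores of 40.8 and 78.5 stood 64 bp apart. At Xkr5 (chr8:18954123-18954217) the scores were 63.5 and 52.5, at Tia1 (chr6:86351244-86351318), an RNA-binding protein gene, 65.2 and 42.3, and at Gpr152 (chr19:4136145-4136234) 89.5 and 12.3.
1700022I11Rik: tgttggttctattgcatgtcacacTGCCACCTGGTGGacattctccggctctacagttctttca
Xkr5: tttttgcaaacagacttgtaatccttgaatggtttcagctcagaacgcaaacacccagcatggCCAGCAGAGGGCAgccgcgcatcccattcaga
Tia1: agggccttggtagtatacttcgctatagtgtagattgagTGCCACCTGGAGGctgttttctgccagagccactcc
Gpr152: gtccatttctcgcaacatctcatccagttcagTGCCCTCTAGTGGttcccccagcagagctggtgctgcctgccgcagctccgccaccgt

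**Figure D5:**
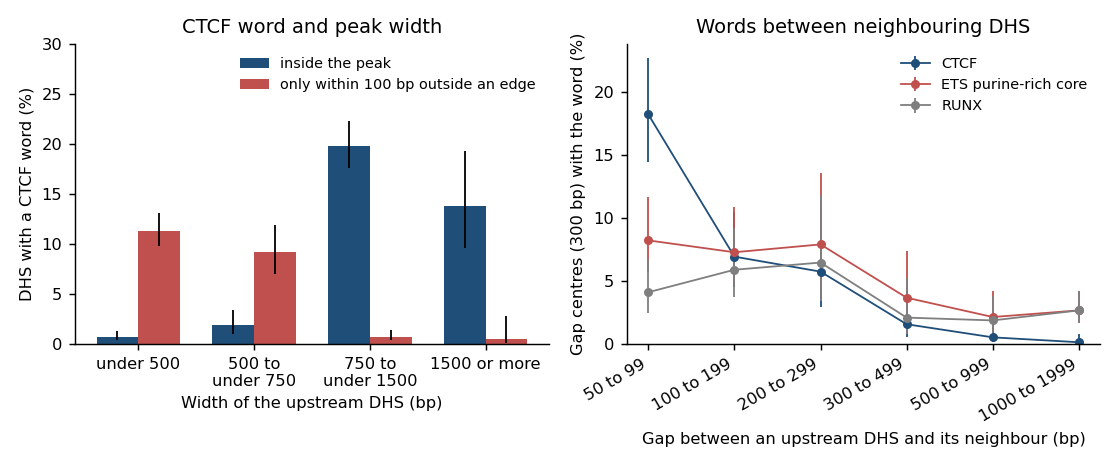
Left, share of upstream DHS with the CTCF word inside the DHS (blue) or only within 100 bp outside an edge (red) by DHS width. Right, share of gaps beside an upstream DHS whose central 300 bp hold the CTCF, ETS or RUNX word, by gap size, both with 95% Wilson intervals. The word is outside in 11.3% of DHS under 500 bp and inside in 19.8% of those of 750 to under 1500 bp, and falls from 18.2% in gaps under 100 bp to 0.149% in gaps of 1000 to 1999 bp.

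Upstream DHS lay close to other DHS, as did those downstream. The nearest DHS lay at a median of 986 bp (880 to 1082) from an upstream DHS, 795 bp from a downstream DHS, 763 bp from a DHS at a TSS and 2142 bp (2053 to 2244) from a distal DHS. None lay within 10 kb of 9.04% of upstream, 10.02% of downstream, 22.1% of TSS and 23.5% of distal DHS. The nearest DHS at a TSS lay at a median of 2591 bp.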

How the data were processed

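Short fragments from DNase I digested nuclei of B220+ splenic B cells were sequenced by the authors in 1 library, and an input library accompanies it. The deposited file is a peak list with a score per peak, the authors' own value from their peak caller, whose scale is not given in the sources used here. The study's methods give a MACS version and threshold for ChIP-seq peaks, but none for the DNaseI library. The submitters' processing notes name BWA 0.6.2, SAMtools and mm9, without roles. Depth is unknown. Chromosome names and lengths matched NCBI build 37, except that 1 peak passed the end of its chromosome.

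TSSs were those of all transcripts of protein-coding genes in GENCODE M1. Sequence was read from NCBI build 37. Repeats were measured as the percentage of 31-mers of a DHS found at several places of that assembly. The 95% intervals are Wilson's for shares, exact Poisson for densities and by order statistics for medians. Ratios of densities have exact conditional intervals, and ratios of shares have intervals on the log scale. For GC-weighted ratios the Wilson bounds were divided by the tile share, taken as fixed. Bounds of score differences subtract opposite bounds of both medians and are not 95% intervals. No test was made, since there is 1 library. Scripts used Python 3.11.15, numpy 2.4.6, pandas 2.3.3 and scipy 1.17.1, and the class and word searches were tested on simulated data.

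The members, lists, words and tests were chosen with earlier results of these data known. Named are the 10 members with the highest score, the 5 widest, the 5 genes with the most (ties by summed score), the 5 highest without a TSS DHS, CpG-rich or with a p53 element, 4 genes per list with the highest value, and DHS closest to the limits. Alternatives were a score at or above the median of 32.65, merging of DHS closer than 500 bp, the DHS centre in place of overlap, 1 TSS per gene, a zone of 3 to 5 kb, covered bases, the whole DHS or the central 100 bp, GC weighting and genes whose whole zone is free. Coding transcripts only, and words in gaps and outside edges, were added after seeing the data. DHS outside chromosomes 1 to 19 (932) were not analysed here. Some genes that this rule names are not reported here.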

Additional observations from a re-analysis of the deposited data

How the results depend on the processing

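No paired analysis was possible because there is 1 DNaseI library and no result comes from a test. No value whose interval lay clear of no difference changed direction. Keeping DHS at or above the median score gave 1205 upstream DHS, a density ratio to downstream of 1.18, a median score of 52.4, a width of 1006 bp, a GC content of 48.7%, a ratio of 3.35 between genes with and without a TSS DHS, and 17 genes of the B cell lists. Merging gave a density ratio to distal DHS of 2.04, a score of 28.6, a width of 855.5 bp and a gene ratio of 3.89. Using the centre gave 2.68, 26.7, 615 bp and 5.20, and 1 TSS per gene gave a score of 26.6 and a gene ratio of 3.92. The zone of 3 to 5 kb gave 1968 upstream DHS, a density ratio of 2.41, a score of 27.0, a width of 612 bp and 19 list genes, beside 7.84% of all genes. Covered bases gave a density ratio of 3.25, whole DHS a GC content of 47.6%, and genes with a free zone a ratio of 5.20. The CTCF ratio ranged from 25.9 to 72.3, and the number of words above the tiles from 7 to 11. No upstream DHS held the long PU.1 word with 1 TSS per gene or coding transcripts only, or the NRF1 word in the central 100 bp, so these gave no value. The cause of these shifts was not tested. The 35 other alternative values of these results moved by less than their interval or 1.5-fold. Coding transcripts only, added after seeing the data, left 2682 upstream DHS and a gene ratio of 4.39. Limits are the lack of replicates and of depth, the unstated scale of the score, and the assignment of DHS to genes by distance alone.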
